A study of Mus musculus with 8 samples.

Results

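The actin-like and perinuclear theca genes examined here were a fixed list of 10 genes, chosen by name: Actl7a, Actl7b, Actl9, Actrt1, Actrt2, Actrt3, Capza3, Cylc1, Cylc2 and Ccin. Of these, 9 had a row among the 17127 genes of the CPM table and all 9 passed the minimum for testing, while Actl7b was not analysed here. The libraries were 7 whole-testis RNA-seq libraries from males aged 4 months. They comprised wild-type mice 1 to 4 and Iqch-/- mice 1, 2 and 4, with 1 library per mouse. The mutants were homozygous for small CRISPR-Cas9 deletions in Iqch, made in B6CBAF1 zygotes. The study kept 2 such lines and refers its phenotyping to 1 of them, which its RNA-seq coverage plot of Iqch also names. The labels do not say which line each mutant testis came from. Mutant 3 was not analysed here.

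The perinuclear theca is the dense protein layer between the nucleus of the sperm head and the membranes that cover it. Under the acrosome, the secretory cap of the sperm head, it tethers the acrosome to the nuclear envelope, and behind the acrosome it forms the calyx, which also carries proteins delivered to the egg. Its core is built in spermatids from actin-related proteins found almost only in the testis, together with the cylicins and calicin. In the mouse, loss of several of these proteins detaches the acrosome or deforms the sperm head and lowers male fertility.

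On the deposited CPM, which are reads of a gene per 1000000 counted reads of the library, all 9 genes had a lower mean in mutant than in wild-type testes. For 5 of them, Capza3, Actl7a, Ccin, Actrt2 and Actl9, the difference passed the limma test across all genes at an FDR below 0.01, with mean CPM lower by 16.4% to 28.6%. None of the 9 was called higher, and at an unadjusted p below 0.05 there were 7 lower and 0 higher. At that p, 3657 of the 17126 genes tested were lower and 7650 higher. At an FDR below 0.01, 14.2% of the genes tested passed as lower in mutants and 36.3% as higher. In the median, the log2 fold change (mutant minus wild type) was -0.26 for the 9 genes and 0.12 for all genes, so that relative to the middle gene the list stood 0.38 lower. After division by median-of-ratios size factors, which brought the median of all genes to -0.01, 8 of the 9 were called lower, all except Cylc1, and 0 higher. In that fit 25.1% of all genes were called lower and 27% higher. Scaled instead to the markers of late spermatids, a setting chosen after seeing the data, all 9 estimates were above 0, as were those of 16453 of the 17126 genes tested, since a scaling shifts all genes by nearly the same amount.

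Over the genes of the CPM table, each library held 32064384 to 37551057 reads if the smallest step of its values is 1 read. Every value was a whole multiple of that step within 0.01 of a read. At that depth the members rested on 547 reads (Actrt1 in mutant 2) to 23583 reads (Actrt2 in wild type 4). Iqch, the targeted gene, was at 192.6 to 216.6 CPM in wild-type testes and at 64.8, 67.7 and 69.2 CPM in the mutants, values that measure its transcript and not the deletion itself. Defining germ cell markers were detected in every group, from Zbtb16 of spermatogonia to Prm2 of late spermatids. In whole testis, fewer spermatids and less RNA per spermatid cannot be told apart.

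In GRCm39 with the GENCODE annotation, Actl7a (ENSMUSG00000070979), Cylc2 (ENSMUSG00000039555), Ccin (ENSMUSG00000070999) and Actrt2 (ENSMUSG00000051276) all lie on chromosome 4, as does Actl7b. Actl7a runs from 56741494 to 56744927 on the plus strand, and 50 bases separate the outermost transcript ends of Actl7a and of Actl7b on the minus strand. Actrt1 (ENSMUSG00000046615, 45417884 to 45419222) and Cylc1 (ENSMUSG00000073001, 110154024 to 110169731) are X-linked. Actl9 (ENSMUSG00000092519) is on chromosome 17, Actrt3 (ENSMUSG00000037737) on chromosome 3 and Capza3 (ENSMUSG00000041791) on chromosome 6. The canonical transcripts of 6 of the 9 genes, Actl7a, Actl9, Actrt1, Actrt2, Capza3 and Ccin, have 1 exon, whereas Actrt3 has 2, Cylc1 6 and Cylc2 8. Capza3 (139986978 to 139988504, plus strand) overlaps the start of Plcz1 on the minus strand by 206 bases. Actrt1 lies within the antisense lncRNA 4930515L19Rik, and Actl7a overlaps the antisense lncRNA Gm68937. The strand setting of the counting is not given in the sources used here, so reads in these overlaps cannot be assigned with certainty.

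Promoters are shown for the called genes that have one in the RefSeq promoter table, and for Cylc1, the member that changed least. This choice was made by the values of the genes, and any part of the promoters in the change was not tested. The RefSeq promoter table (build GRCm38.p6) held 7 of the 9 genes, without Capza3 and Cylc2, and the 250 bases before each start were located in GRCm39 by exact match, once each on the gene's chromosome. For Actl7a the RefSeq start lies 1928 bases inside the GENCODE gene. They were searched on both strands for TGACG, the core of the cAMP response element through which CREM acts in spermatids, for GTTGCC, the core of the RFX site, and for AACAAT, a SOX core. Capitals mark the matches, on either strand. The windows are chr4:56743172-56743421 (plus) for Actl7a, chr17:33651623-33651872 (plus) for Actl9, chr4:154752325-154752574 (minus) for Actrt2, chr4:43983254-43983503 (plus) for Ccin and chrX:110153774-110154023 (plus) for Cylc1.
Actl7a: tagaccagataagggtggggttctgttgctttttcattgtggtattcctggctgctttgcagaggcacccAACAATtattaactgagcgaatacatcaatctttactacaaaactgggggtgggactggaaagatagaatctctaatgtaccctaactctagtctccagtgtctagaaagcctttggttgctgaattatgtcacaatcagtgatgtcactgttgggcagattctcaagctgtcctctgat
Actl9: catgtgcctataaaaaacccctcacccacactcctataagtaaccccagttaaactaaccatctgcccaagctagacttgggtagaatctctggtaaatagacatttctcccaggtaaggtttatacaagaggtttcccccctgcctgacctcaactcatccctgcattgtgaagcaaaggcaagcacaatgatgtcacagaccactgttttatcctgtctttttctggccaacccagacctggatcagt
Actrt2: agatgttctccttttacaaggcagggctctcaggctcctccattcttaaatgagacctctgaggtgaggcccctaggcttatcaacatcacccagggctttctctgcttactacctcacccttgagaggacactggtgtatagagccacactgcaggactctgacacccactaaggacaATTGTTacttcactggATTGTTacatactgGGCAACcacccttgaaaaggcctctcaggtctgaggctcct
Ccin: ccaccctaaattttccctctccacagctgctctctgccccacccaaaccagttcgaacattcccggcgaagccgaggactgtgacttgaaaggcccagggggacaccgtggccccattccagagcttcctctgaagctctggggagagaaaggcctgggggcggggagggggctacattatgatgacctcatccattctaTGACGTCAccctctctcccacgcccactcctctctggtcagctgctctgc
Cylc1: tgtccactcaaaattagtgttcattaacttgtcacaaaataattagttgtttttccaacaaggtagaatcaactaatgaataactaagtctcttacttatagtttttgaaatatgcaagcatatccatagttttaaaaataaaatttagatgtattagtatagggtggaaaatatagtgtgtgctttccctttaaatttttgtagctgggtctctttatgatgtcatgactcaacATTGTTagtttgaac
The Ccin promoter holds TGACG on both strands, overlapping by 2 bases, which makes the palindromic element TGACGTCA, searched for after this match was seen. It was the only one of the 7 promoters with that palindrome, which 1.55% of 32851 promoters in the table hold. TGACG on its own was in 2 of the 7 promoters (17.8% of all), GTTGCC in 2 (10.4% of all) and AACAAT in 4 (9.42% of all). The Actrt2 window held AACAAT at 2 positions and GTTGCC at 1, and that of Actl9 held none of these letters. These matches describe the sequence and no binding was measured.

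**Figure D1:**
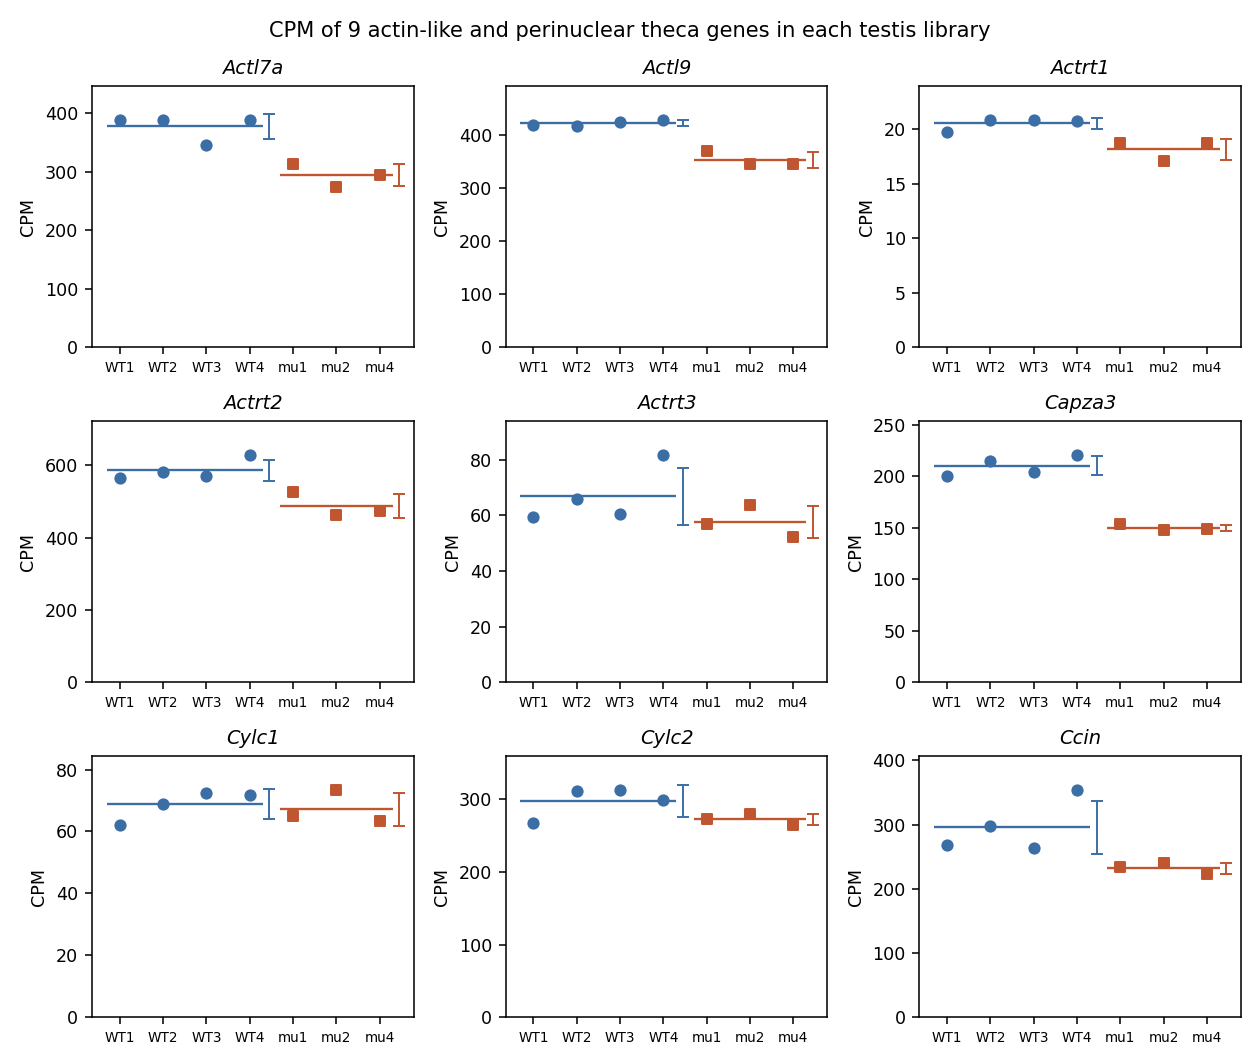
CPM (linear axis from 0) of each of the 9 genes in every library, wild type as blue circles (WT1 to WT4) and Iqch mutants as orange squares (mu1, mu2, mu4), with horizontal lines at the group means and bars of 1 SD beside them. The mutants lie below every wild-type library for 6 genes, most widely for Capza3 (148.4 to 153.4 against 200.8 to 220.7 CPM), and overlap them for Actrt3, Cylc1 and Cylc2. Of all tested genes, 19.5% have every mutant library below every wild-type library.

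Capza3 encodes the testis form of the alpha subunit of capping protein, which closes the growing ends of actin filaments. It measured 200.8, 214.7, 204.6 and 220.7 CPM in wild-type mice 1 to 4 and 153.4, 148.4 and 148.6 CPM in mutants 1, 2 and 4. The mutant values lay close together and far below the lowest wild-type value. The means were 210 ± 9.14 CPM (SD, n = 4) and 150 ± 2.85 CPM (SD, n = 3), a log2 fold change of -0.48 (standard error, SE, 0.04, limma FDR 1.0e-06), the greatest fall among the 9 genes. Relative to the median of all genes the change was -0.61. Plcz1, its overlapping neighbour, which encodes the sperm phospholipase that triggers calcium oscillations in the egg, fell from 275 ± 15.8 CPM (SD, n = 4) to 200 ± 3.52 CPM (SD, n = 3), a log2 fold change of -0.46 (SE 0.05, limma FDR 3.6e-06).

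None of the other subunit genes of capping protein was called lower on the deposited CPM. Capzb, the beta subunit with which the alpha forms pair, had means of 321 ± 8.0 and 296 ± 4.30 CPM (SD, n = 4 wild types and 3 mutants), a log2 change of -0.12 (limma FDR 0.0155). The alpha subunit genes of other tissues, Capza1 and Capza2, had log2 fold changes of 0.18 (limma FDR 0.0116) and 0.58 (limma FDR 6.3e-05). The ratio of Capza3 to Capzb within a library, which no scaling of the library can move, was -0.69, -0.56, -0.61 and -0.58 on the log2 scale in wild-type mice 1 to 4 and -0.97, -0.999 and -0.97 in mutants 1, 2 and 4. All mutants were below all wild types, by 0.37 in the mean (SE 0.03), with an exact permutation p of 0.0286 (two-sided), the smallest that 3 against 4 libraries can give, and 0.143 after Benjamini-Hochberg adjustment over the 5 pairs tested. In whole testis this ratio still depends on the mix of cells, whose part in the difference was not tested.

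Actl7a encodes an actin-like protein under the acrosome that holds it to the nucleus. Its CPM were 388.9, 388.1, 346.7 and 388.8 in wild-type mice 1 to 4 and 314.2, 275.01 and 295.3 in mutants 1, 2 and 4. Every mutant was lower than every wild type, although wild type 3 stood below the other wild-type libraries. The log2 fold change was -0.36 (SE 0.05, limma FDR 9.2e-05), from 378 ± 21.0 to 295 ± 19.6 CPM (SD, n = 4 and 3), and leaving out any single library kept it between -0.41 and -0.31.

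Actl9, whose protein binds ACTL7A in the theca, was at 419.6, 417, 424.8 and 428.4 CPM in wild-type mice 1 to 4 and at 369.8, 344.5 and 344.8 CPM in mutants 1, 2 and 4. The wild-type libraries were very close together, with an SD of 5.10 CPM, and the groups did not overlap. The log2 fold change was -0.26 (SE 0.04, limma FDR 7.8e-05).

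The Actrt genes encode actin-related proteins of the theca, ARP-T1, ARP-T2 and ARP-M1. Actrt2 was at 564, 580.1, 571 and 628 CPM in wild-type mice 1 to 4 and at 525.3, 463.1 and 473.2 CPM in mutants 1, 2 and 4, a log2 fold change of -0.27 (SE 0.05, limma FDR 6.3e-04) with no overlap between groups. Actrt1 was at 19.8, 20.9, 20.8 and 20.7 CPM in wild-type testes and at 18.8, 17.1 and 18.7 CPM in mutants 1, 2 and 4. Its groups did not overlap either, but its change of -0.18 (SE 0.07, limma FDR 0.0316, 95% interval -0.32 to -0.04) did not pass the threshold on the deposited CPM and passed after size factors, at -0.31 (limma FDR 0.00124). Actrt3 was at 59.4, 65.8, 60.6 and 81.6 CPM in wild-type testes and at 56.9, 63.7 and 52.03 CPM in mutants. Mutant 2 lay among the wild-type libraries and wild type 4 far above the others. Its change was -0.21 (SE 0.10, limma FDR 0.0872, 95% interval -0.43 to 0.01). It was -0.11 without wild type 4, -0.14 without mutant 4, and -0.34 after size factors (limma FDR 0.00874).

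The ratios among the Actrt genes showed no difference between genotypes that passed the exact permutation test. Actrt1 against Actrt2 differed by 0.09 (SE 0.05, exact p = 0.143), Actrt1 against Actrt3 by 0.03 (SE 0.16, exact p = 0.83) and Actrt2 against Actrt3 by -0.06 (SE 0.12, exact p = 0.571) on the log2 scale, mutant minus wild type. The pair of Actl7a with Actl7b, its neighbouring paralog, could not be computed.

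**Figure D2:**
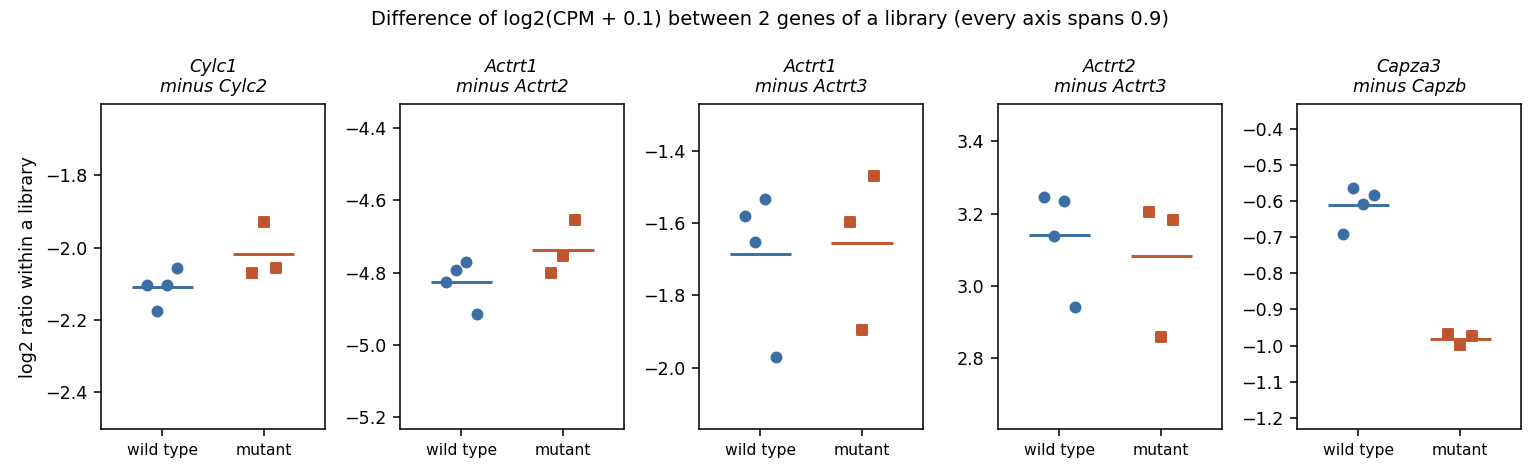
Within-library log2 ratios of CPM for 5 pairs of related genes (vertical axes of equal span), wild type as blue circles and mutants as orange squares with lines at the means. The groups are apart for Capza3 minus Capzb (means -0.61 and -0.98) and overlap for the other 4 pairs.

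Ccin encodes calicin, a BTB-kelch protein of the calyx. It was at 269, 297.9, 264.4 and 353.9 CPM in wild-type mice 1 to 4 and at 234.2, 239.8 and 222.6 CPM in mutants 1, 2 and 4. The groups did not overlap, but the wild type spread widely, with wild type 4 far the highest. The change was -0.34 (SE 0.08, limma FDR 0.00282). Without wild type 4 it was -0.25 and still called, and without mutant 4 it was -0.31 and not called (limma FDR 0.0134).

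The cylicins, basic proteins of the calyx rich in lysine repeats, changed least. Cylc1 was at 62, 68.8, 72.5 and 71.9 CPM in wild-type mice 1 to 4 and at 64.8, 73.4 and 63.5 CPM in mutants 1, 2 and 4. The groups overlapped throughout, and mutant 2 held the highest value of all. Its log2 fold change of -0.03 (SE 0.07, limma FDR 0.680) had a 95% interval from -0.18 to 0.11. After size factors it was -0.17 (limma FDR 0.0366). Cylc2 was at 266.4, 311.3, 312.2 and 299.2 CPM in wild-type testes and at 272.6, 279.7 and 264.4 CPM in mutants. Wild type 1 lay within the mutants' range, and the change of -0.12 (SE 0.05, limma FDR 0.0624) became -0.18 and was called without that library (limma FDR 0.00418). It was -0.26 after size factors (limma FDR 0.00119). The ratio of Cylc1 to Cylc2 within libraries differed by 0.09 (SE 0.05) between genotypes, with an exact permutation p of 0.114.

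Of the 9 genes, 6 had every mutant library below every wild-type library on the deposited CPM, where 19.5% of all tested genes did. Leaving out single libraries left 4 to 6 of the 9 called lower, with 4 without mutant 4 (Ccin lost) and 6 without wild type 1 (Cylc2 added). With no library left out, 14.2% of all tested genes were called lower. By exact permutation of the genotype labels (35 arrangements, two-sided), Capza3, Actl7a, Actl9, Actrt1 and Actrt2 each gave p = 0.0286, the smallest possible. Ccin gave an exact p of 0.0571, as 1 other arrangement had a difference as large.

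Per kilobase of annotated exon, the order of the levels in wild-type testes was Actrt2 (408 ± 20.2 CPM per kb), Actl9 (308 ± 3.71), Actl7a (170 ± 9.45), Ccin (153 ± 21.2), Capza3 (138 ± 5.99), Cylc2 (88.2 ± 6.36), Cylc1 (33.1 ± 2.33), Actrt3 (22.4 ± 3.44) and Actrt1 (15.4 ± 0.390), each with its SD over 4 libraries. The ranges of neighbours in this order overlapped for Actl7a and Ccin and for Ccin and Capza3, and no other neighbours overlapped. The order was the same in the mutants, in which Actrt2 was at 340 ± 23.3 and Actrt1 at 13.6 ± 0.722 CPM per kb (SD, n = 3). Both X-linked genes, Cylc1 and Actrt1, were among the 3 lowest. The length used counts every annotated exon of a gene. RefSeq starts of Actl7a and Actrt3 lie 1928 and 629 bases inside the GENCODE genes, so the order and overlaps depend on the annotation.

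Other genes of the theca and of the acrosome's anchorage also had lower mean CPM in mutants. Of 10 listed, 6 were called lower and 0 higher on the deposited CPM, with a median log2 fold change of -0.21. In that fit 14.2% of all tested genes were called lower. At an unadjusted p below 0.05, 8 were lower and 0 higher (3657 and 7650 of all 17126 genes tested). Besides Plcz1, the called genes were Gsto2, a theca glutathione transferase (-0.35, limma FDR 4.0e-06), Wbp2nl, a protein of the postacrosomal sheath (-0.31, limma FDR 0.00509), Dpy19l2, which fastens the acrosome at the inner nuclear membrane (-0.29, limma FDR 6.2e-04), Zpbp2 (-0.24) and Zpbp (-0.18). Fam209, Eqtn, Spata46 and Spaca1 had estimates from -0.15 to -0.08 and did not pass. All 10 were called lower after size factors, where 25.1% of all tested genes were. Scaled to the late spermatid markers, every estimate in this list and in the 4 lists of actin genes that follow was above 0, as were 16453 of the 17126 over all genes.

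Actin-related proteins outside the list went in both directions on the deposited CPM. Of 12 tested (13 listed), 4 were called lower and 4 higher, with a median of 0.05, and after size factors 5 were lower and 2 higher. Among all genes tested, 14.2% were called lower and 36.3% higher, and after size factors 25.1% and 27%. Actl11 and Actl10, further actin-like genes, fell by 0.31 (limma FDR 5.2e-05) and 0.42 (limma FDR 7.1e-04) on the log2 scale. Actl6a, a subunit of chromatin remodelling complexes, and Actr10, of dynactin, fell by 0.23 and 0.13. Actr2 and Actr3, the actin-related subunits of the Arp2/3 complex that branches actin filaments, rose by 0.48 (limma FDR 1.2e-05) and 0.75 (limma FDR 8.8e-07), and Actr3b and Actr1b by 0.65 and 0.27, of which Actr2 and Actr3 were also called higher after size factors.

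Among conventional actins, of which 4 of 6 listed were tested, Actb (0.10, limma FDR 0.123) and Actg1 (0.01, limma FDR 0.857) did not pass, nor did Acta2 of smooth muscle (0.28, limma FDR 0.0394), while Actg2 fell by 0.44 (limma FDR 3.4e-05). Reads of Actb and Actg1 can be shared with near-identical copies. Of capping protein and twinfilin genes, 3 of 5 rose, Twf2 (1.05, limma FDR 7.6e-08), Twf1 (1.03, limma FDR 1.2e-07) and Capza2, and 0 fell. Among all genes tested, 36.3% were called higher and 14.2% lower. At an unadjusted p below 0.05, 1 was lower and 4 higher (3657 and 7650 of all 17126 genes tested). After size factors Twf2, Twf1 and Capza2 were higher and Capzb was called lower (-0.25). Of 5 profilins and cofilins tested (6 listed), which feed and sever actin filaments, Pfn1 (0.40), Cfl1 (0.35) and Cfl2 (0.21) rose and Pfn4, a profilin of spermatids, fell by 0.22 (limma FDR 0.00174). Pfn2 (-0.12) was not called. After size factors Cfl2 was no longer called and Pfn2 was called lower (-0.26, limma FDR 2.2e-04).

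**Figure D3:**
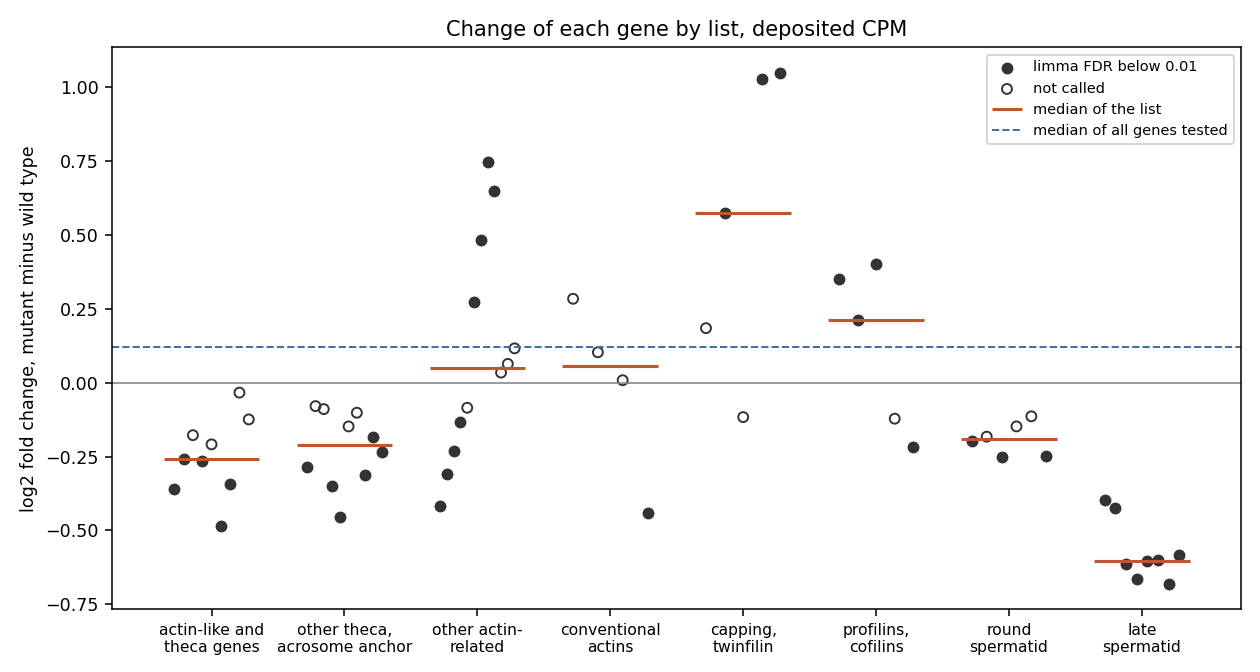
Log2 fold change on the deposited CPM (mutant minus wild type, vertical axis) of each gene in 8 lists, filled where limma's FDR was below 0.01, with the median of each list in orange and of all tested genes (0.12) as a dashed line. The actin-like and theca genes (median -0.26) stand between the medians of the round (-0.19) and late (-0.60) spermatid markers, and scaling to the late markers, which puts 16453 of 17126 genes above 0, puts all 9 above 0.

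Spermatid markers moved with these genes. Of the 6 markers of round spermatids, 3 were called lower on the deposited CPM (Acrv1, Izumo1 and Tssk1) and 6 after size factors. Their median log2 fold change was -0.19 on the deposited CPM. Among all genes tested, 14.2% were called lower on the deposited CPM and 25.1% after size factors. All 8 markers of late spermatids were called lower, with a median of -0.60, from -0.68 for Tnp1, a transition protein gene, to -0.40 for Akap4, a fibrous sheath gene. The summed CPM of the late list was 23463 to 24794.5 in wild-type and 15073 to 17262 in mutant libraries, and that of the round list 976.3 to 1068 and 865.3 to 924.7. The study named several of these genes as spermatid markers in the same mice. From their low fold changes it judged the differences due to fewer spermatids to be subtle. By flow cytometry of germ cells from older mice, it found a smaller proportion of haploid cells in mutants. Spaca1 is both a round marker and an acrosome gene of the list above.

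To set the 9 genes against both lists, all values were divided by the mean level of each list in each library, 2 alternatives chosen after seeing the data. Against the round spermatid markers only Capza3 was called, at -0.29 (SE 0.06, limma FDR 5.5e-04), where 4.41% of all genes were called lower. Actl7a was at -0.17 (limma FDR 0.0127) and the other 7 between -0.15 and 0.16, none called, and 49.5% of all genes were called higher. Against the late spermatid markers, 7 of the 9 were called higher, all except Capza3 at 0.09 (SE 0.06, limma FDR 0.198) and Ccin at 0.23 (limma FDR 0.0109). On that scale 86.1% of all tested genes were called higher, and 1.23% lower, so the share of these genes called higher is no more than the background. Cylc1 stood highest, at 0.54 (SE 0.09, limma FDR 5.1e-06).

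**Figure D4:**
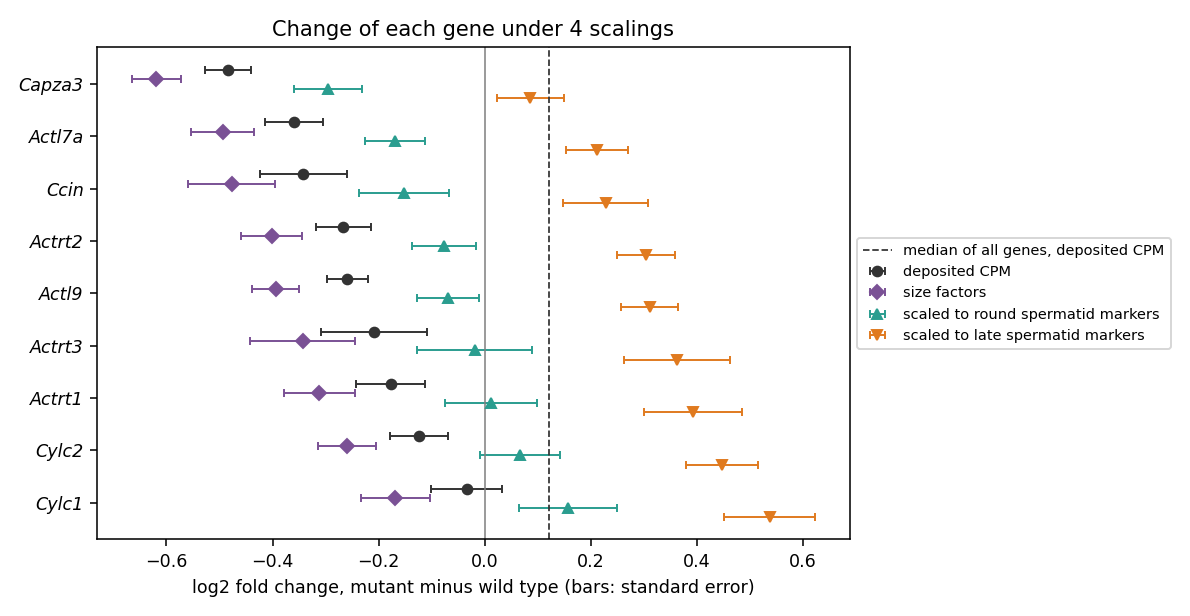
Log2 fold change of each gene, mutant minus wild type (horizontal axis, bars of 1 standard error), on the deposited CPM and after 3 rescalings, with genes in order of change and the median of all genes on the deposited CPM dashed. On the deposited CPM the estimates run from -0.48 (Capza3) to -0.03 (Cylc1). Each scaling shifts all genes by nearly the same amount, so the order cannot change much, and scaling to the late spermatid markers puts these 9 and 16453 of the 17126 genes above 0.

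Markers of Sertoli cells, macrophages and Leydig cells were higher in mutants on the deposited CPM. All 5 Sertoli markers, all 3 macrophage markers and 4 of 5 Leydig markers were called higher, with medians of 0.81, 1.55 and 1.42. After size factors 4 of the 5 Sertoli markers were called higher, and the macrophage and Leydig counts were as before. The summed CPM of the Leydig list was 984 to 1187 in wild-type and 4189 to 4370 in mutant libraries. Of the 7 spermatocyte markers 1 was called lower (Ccna1) and 1 higher (Spo11), and after size factors 4 were lower and 0 higher. Of 6 spermatogonium markers 4 were called higher (1 after size factors, Kit at 1.37), of 2 endothelial markers 1, and of 3 peritubular myoid markers 0. Among all genes tested, 36.3% were called higher and 14.2% lower on the deposited CPM, and 27% and 25.1% after size factors. The medians of the spermatocyte and myoid lists were -0.06 and -0.16. The part of these shifts in the results above was not tested.

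By a rule of likeness, the genes whose profile over the 7 libraries came nearest to the mean profile of the 9 genes were Ube2w, Rangap1, Jmjd6, Spn-ps and 1700129C05Rik. Their root mean square differences from it on the log2 scale were 0.023 to 0.027, among 10677 genes with a wild-type mean of at least 10 CPM. The 9 genes themselves differed from their mean profile by 0.045 (Actrt2) to 0.16 (Cylc1). Since both groups enter the profile, this likeness rests mainly on the size of the change between genotypes, and the fold changes of the 5 genes lay between -0.27 and -0.23.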

How the data were processed

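Testis RNA of 4 wild-type and 3 Iqch mutant mice was analysed from 1 table. The authors trimmed the paired-end reads with Trimmomatic, mapped them with Subread to GRCm39, counted them with featureCounts, dropped genes that did not reach 75 reads in at least 2 samples of either genotype, left out 1 mutant as an outlier and deposited CPM. Each library's CPM sum to 1000000 over the table, with no further factor.

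Here the linear model of limma (version 3.58.1, R version 4.3.3, trended empirical Bayes variance) was fitted to log2(CPM + 0.1). It covered the 17126 genes that reached 2.2 CPM in 2 libraries of either genotype, with Benjamini-Hochberg adjustment over all of them and an FDR threshold of 0.01. Fold changes on this scale understate changes of low genes. No count test was run on these normalized values. Intervals cover the spread between these libraries. Ratios of 2 genes were compared by an exact permutation test. Symbols, exons and positions came from GENCODE M39 on GRCm39, which holds 99.5% of the genes, and promoter sequences from RefSeq. The strand setting and the annotation used for counting are not given in the sources used here. Python 3.11.15 and matplotlib 3.10.9 were used for the rest. The genes named are the 10 listed, Iqch, the genes of the fixed lists and markers, and the 5 most alike. Actl7b and mutant 3 were not analysed here. The members, the marker lists and the tests were chosen with earlier results of these data known. Alternatives were other pseudocounts, minimums and scalings, a replicate block, and each library left out.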

Additional observations from a re-analysis of the deposited data

Results flagged for a closer look

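In 2 of the 14 sets of 4 wild-type values examined (9 genes and 5 ratios), 1 library stood apart from the other 3 by more than Dixon's critical value for the gap over the range. Actl7a was at 346.7 CPM in wild type 3, below 388.1 to 388.9 CPM in the others, and without that library its log2 fold change was -0.40. Actrt1 was at 19.8 CPM in wild type 1, below 20.7 to 20.9 CPM in the others, and without that library its change was -0.20 and still not called. Chance flags about 1 in 20 such sets.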

How the results depend on the processing

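The count of 8640 genes called stayed within 1.5 times under all alternatives except scaling to the late spermatid markers, which gave 14951. The count of 5 genes of the list called lower became 8 after size factors, 1 when scaled to the round and 0 when scaled to the late spermatid markers, where 7 were called higher. The share of all genes called lower moved likewise, from 14.2% to 25.1%, 4.41% and 1.23% in that order. On the late scale 86.1% of all genes were called higher. Leaving out single libraries gave 4 to 6 called lower and 0 called higher, and 7237 to 8503 genes over the whole table, both directions together. Of all calls, those higher in mutants were 71.9% on the deposited CPM and 51.9% after size factors. Pseudocounts of 1 and 0.01, no minimum and a minimum of 5 CPM changed no call among the 9 genes.

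Scaled to the late markers the log2 fold changes turned positive, at 0.21 for Actl7a, 0.31 for Actl9, 0.39 for Actrt1, 0.30 for Actrt2, 0.36 for Actrt3, 0.086 for Capza3, 0.54 for Cylc1, 0.45 for Cylc2 and 0.23 for Ccin. Scaled to the round markers Actrt1 (0.012), Cylc1 (0.16) and Cylc2 (0.066) turned positive. By construction these scalings, chosen after seeing the data, subtract the fall of the markers. With a library left out, Cylc1 ran from -0.098 (without mutant 2) to 0.0059 (without mutant 4), called in none of these fits, and the cause was not tested. The ratio of Capza3 to Capzb ran from -0.39 to -0.35 with a library left out, where the exact test cannot pass 0.05. That of Actrt1 to Actrt3 ran from -0.06 to 0.15, changing sign without wild type 4 (-0.064) or mutant 4 (-0.060), and that of Actrt2 to Actrt3 from -0.12 to 0.05, changing sign without mutant 2 (0.053).

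Same-numbered mice did not deviate together over all genes (correlations of 0.03, 0.01 and -0.10 for numbers 1, 2 and 4). The labels give only the number. Correlations over all genes cannot show whether such mice shared a litter or a batch that acted on fewer genes. A fit with the replicate number as a block, to which wild type 3 adds nothing because no mutant shares its number, called 5 of the 9 genes lower. Over the whole table it called 7722 genes, both directions together.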

Other observations

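The 9 genes were also counted by exon structure, a grouping made after their values were seen. Of the 6 whose canonical transcript has 1 exon (Actl7a, Actl9, Actrt1, Actrt2, Capza3 and Ccin), 5 were called lower on the deposited CPM, with a median log2 fold change of -0.30. The estimates of the classes overlapped, as Actrt1 with 1 exon was at -0.18 and Actrt3 with introns at -0.21. Of the 3 with introns (Actrt3, Cylc1 and Cylc2), 0 were called in limma, with a median of -0.12 on the deposited CPM. At an unadjusted p below 0.05, 1 of them was lower (3657 of all 17126 genes tested). After size factors 2 of them were called lower, and 6 of the 6 with 1 exon, where 25.1% of all genes were called lower. On the deposited CPM, 29.9% of the 395 tested protein-coding genes with 1 exon were called lower and 25.1% higher. Of the 13389 with more exons, 12.2% were called lower and 42.0% higher. The medians of these classes were -0.05 and 0.18. After size factors, 162 of the 395 and 3090 of the 13389 were called lower. No test of the difference between these classes was made.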
